A study of Mus musculus with 87 samples.

Results

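Immediate early genes are transcribed within minutes of a stimulus, without new protein synthesis, when calcium, cyclic AMP or growth factor signals reach kinases that act on CREB, SRF and MEF2 at their promoters. Their transcripts are short-lived, and many of their products are themselves transcription factors that switch on a later set of genes. In neurons they are widely used as a record of recent firing, while in glia and immune cells they respond to growth factors, cytokines and tissue stress. The 10 genes described here were taken by their symbols. They are the AP-1 subunits Fos, Fosb, Jun and Junb, the zinc finger factors Egr1 and Egr3, the orphan nuclear receptor Nr4a1, the synaptic protein gene Arc, the neuron-restricted factor Npas4, and Ier2, a nuclear regulator of early response. They were 10 of the 48526 genes in the table of sorted bulk nuclei and 10 of the 48531 genes in the table of single nuclei.

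The nuclei came from the ventral midbrain of wildtype C57BL/6J mice of both sexes, 6 to 12 months old, that had received 40 ng of interferon-gamma (IFN-γ) in 400 nL, or saline, by local injection. At 6, 24, 48 and 72 h, nuclei were sorted by staining for NeuN, a neuronal nuclear protein, and sequenced as small pools in wells, with unique molecular identifiers (UMIs) counted per gene. Saline gave 4, 6, 4 and 4 wells per NeuN fraction at those times and IFN-γ gave 6 wells at each, so 84 wells were used, 42 of each fraction. The deposited labels call every one of the 84 wells NeuN+. Here each well's fraction follows the plate map published with the study, matched on its barcode. The study elsewhere describes more NeuN+ than NeuN- wells, which this map does not show. Each group came from 2 to 3 mice, and which wells share a mouse was not given in the sources used here, so p-values measure the spread between wells, which may be partly technical. Single nuclei were profiled at 48 h from 1 saline mouse and 2 IFN-γ mice.

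On GRCm38 Fos spans chr12:85473890-85477273 on the plus strand, Fosb chr7:19302696-19310051 on the minus strand, Jun chr4:95049034-95052222 on the minus strand and Junb chr8:84974484-84978718 on the minus strand. Egr3 spans chr14:70077203-70082614 on the plus strand, Nr4a1 chr15:101254269-101274795 on the plus strand, Arc chr15:74669083-74672570 on the minus strand, Npas4 chr19:4984355-4990316 on the minus strand and Ier2 chr8:84661331-84662852 on the minus strand.

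Promoter windows from RefSeq (GRCm38.p6, 250 bases before to 50 bases after the annotated start) were matched for Fos, Fosb, Jun, Junb, Npas4 and Nr4a1, and those for Egr1, Egr3, Arc and Ier2 are not shown. The windows of Fos, Npas4 and Jun are printed because these 3 genes had unlike outcomes in a comparison of the NeuN fractions in saline wells. There edgeR without a filter called Npas4 on the neuronal side of the sort, Jun on the other side and Fos on neither, while DESeq2 called only Jun. Any link between the sequences and that comparison was not tested. Capitals mark matches to the CRE core (TGACG, the letters that CREB family factors recognise) or the TATA element (TATAAA), searched on both strands. The Fos window is chr12:85473640-85473939 on the plus strand, the Npas4 window chr19:4989922-4990221 on the minus strand and the Jun window chr4:95052173-95052472 on the minus strand, each written 5′ to 3′ in the direction of transcription.
Fos: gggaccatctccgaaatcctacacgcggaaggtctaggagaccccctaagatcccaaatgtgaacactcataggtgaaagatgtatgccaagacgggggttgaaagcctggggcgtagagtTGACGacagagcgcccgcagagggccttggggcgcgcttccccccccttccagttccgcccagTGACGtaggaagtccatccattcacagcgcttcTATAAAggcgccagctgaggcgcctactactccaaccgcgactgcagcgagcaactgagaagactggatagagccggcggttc
Npas4: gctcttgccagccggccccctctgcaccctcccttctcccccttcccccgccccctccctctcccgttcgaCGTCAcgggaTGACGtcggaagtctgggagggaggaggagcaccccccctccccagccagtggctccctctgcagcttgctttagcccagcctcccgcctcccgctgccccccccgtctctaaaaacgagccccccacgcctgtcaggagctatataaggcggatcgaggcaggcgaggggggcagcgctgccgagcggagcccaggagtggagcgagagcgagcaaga
Jun: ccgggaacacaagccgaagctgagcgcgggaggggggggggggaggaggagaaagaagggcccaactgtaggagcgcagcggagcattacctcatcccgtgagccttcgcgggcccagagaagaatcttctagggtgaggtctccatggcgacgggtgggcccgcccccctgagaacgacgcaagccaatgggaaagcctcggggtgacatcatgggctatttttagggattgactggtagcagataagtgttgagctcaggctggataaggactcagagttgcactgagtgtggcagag

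The CRE core was found in 5 of these 6 windows (Fos, Fosb, Junb, Npas4 and Nr4a1, not Jun) and in 20.8% of the 32817 promoter windows of the reference. Its first base stood at -129 and -66 relative to the start in Fos and at -179 and -169 in Npas4. The TATA element was found in Fos and Junb and in 13.6% of all windows, and the EGR site GCGGGGGCG in Fosb and Nr4a1 and in 2.91% of all windows. None of the 6 windows held a full CRE (TGACGTCA, 1.79% of all windows), an AP-1 site (TGANTCA, 7.81%), the EGR site GCGTGGGCG (0.612%), the serum response element core known as the CArG box (1.63%) or the interferon-gamma-activated sequence TTCNNNGAA (8.29%). These are letter matches in a 300-base window. Sites farther from the start were not searched, and Egr1, Egr3, Arc and Ier2 are not covered.

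The members were rare. NeuN- wells held 20962 to 301445 UMIs and 145 UMIs of the 10 genes among 5186325 in all, and NeuN+ wells held 277113 to 1684374 UMIs and 713 UMIs of the 10 genes among 44851694. One UMI was therefore worth 9.07 CPM (counts per 1e6, the usual scale of UMIs relative to the total of a well) in the median NeuN- well and 0.94 CPM in the median NeuN+ well. Not 1 of the 10 genes passed edgeR's filter on low counts in any of the 17 bulk comparisons, so the fits quoted for them keep every gene that had a UMI in the wells compared. Intervals given beside counts are exact 95% intervals and cover counting error only. Egr3 had 0 UMIs in all 84 wells, which allows up to 0.711 CPM in NeuN- and 0.0822 CPM in NeuN+ nuclei pooled over wells. Fosb had 2 UMIs, both in 1 NeuN+ well at 24 h after IFN-γ.

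The sort separated the cell types. Over the saline wells of all times, 4 neuronal markers summed to a median of 211 CPM in NeuN- and 2847 CPM in NeuN+ wells, and 6 oligodendrocyte markers to 7961 and 352 CPM. The 4 genes used to check the response to IFN-γ rose from a median of 83.5 to 1342 CPM in NeuN- and from 10.6 to 164 CPM in NeuN+ wells at 6 h, and all 4 were called higher at 6 and 24 h in both fractions by edgeR's quasi-likelihood test (log2 fold change beyond 1 and Benjamini-Hochberg adjusted p under 0.01, the call used for all IFN-γ comparisons). Sex-linked genes were also called between IFN-γ and saline wells at 6 and 24 h in both fractions, and a fit with a sex-linked term is quoted where it ends a call.

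In NeuN- nuclei the 10 genes together gave 31 UMIs in 18 saline wells (15.4 CPM pooled) and 114 UMIs in 24 IFN-γ wells (35.9 CPM pooled), and most of the difference lay at the first 2 times. At 6 h the wells held 4, 0, 3 and 2 member UMIs after saline and 1, 6, 11, 7, 13 and 2 after IFN-γ, 19.6 against 54.8 CPM pooled. At 24 h they held 1, 1, 2, 2, 1 and 0 after saline and 17, 15, 3, 2, 5 and 6 after IFN-γ, 13.4 against 51.4 CPM pooled. The levels then came together, at 20.3 and 19.3 CPM at 48 h and 9.35 and 15.5 CPM at 72 h. Per well the sum had a median of 24.1 CPM after saline (0 to 30.0) and 50.0 CPM after IFN-γ (19.3 to 121) at 6 h, and of 12.7 (0 to 29.7) and 55.0 CPM (17.4 to 73.6) at 24 h. At each of these times 5 of 6 IFN-γ wells lay above every saline well and 1 lay within their range, and at 6 h 1 of the 5 rests on a single UMI in the smallest well.

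**Figure D1:**
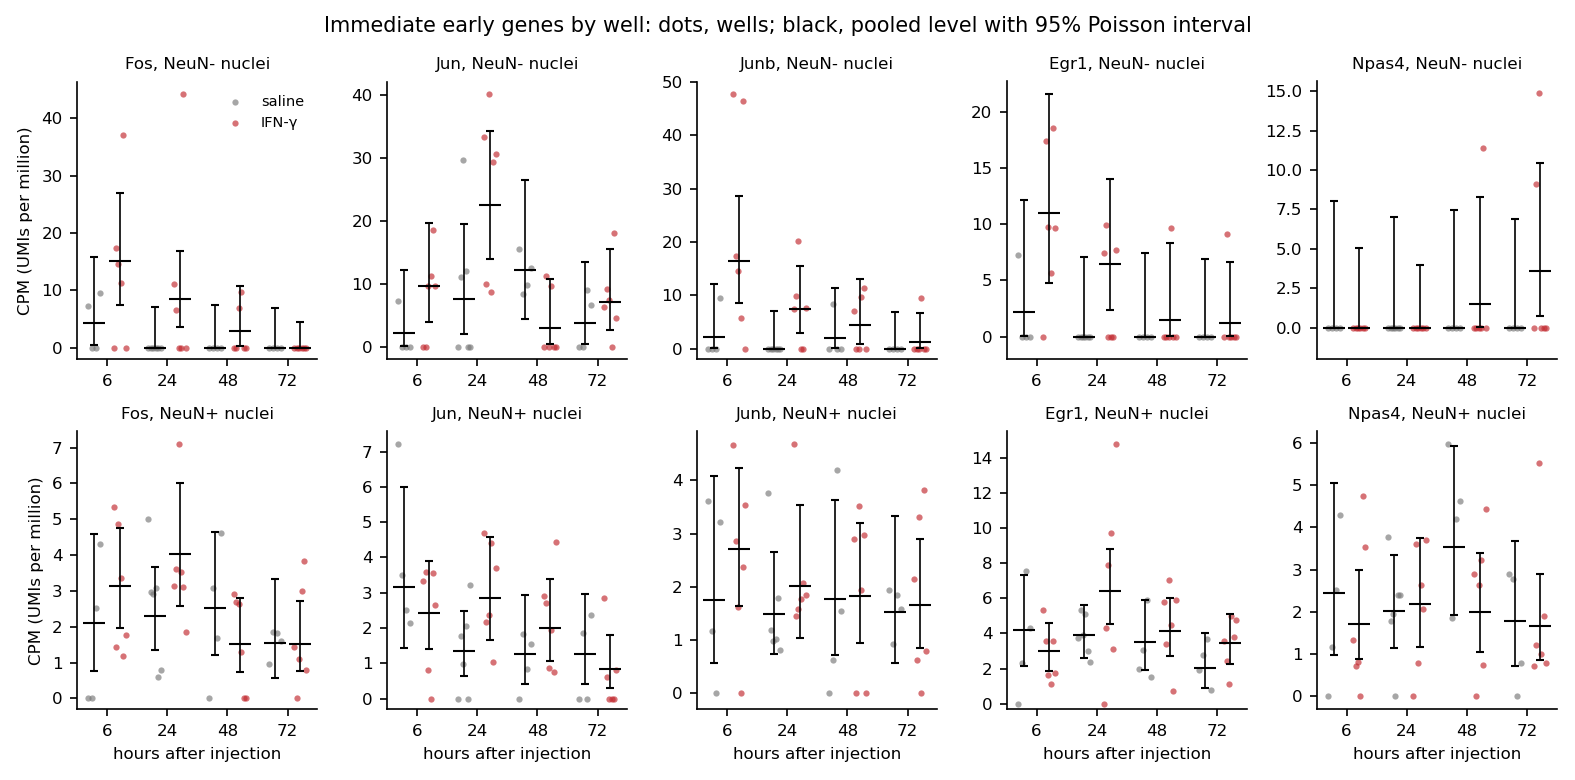
Level of Fos, Jun, Junb, Egr1 and Npas4 in every well in CPM (vertical axis) against hours after injection (horizontal axis), NeuN- wells in the upper and NeuN+ wells in the lower row. Grey points are saline and red points IFN-γ wells, and black marks give the pooled level with its 95% Poisson interval. In NeuN- nuclei most saline wells sit at 0 for Fos, Junb, Egr1 and Npas4, while Jun was found in 10 of 18. At 6 and 24 h the highest IFN-γ wells lie above the saline wells for Fos, Jun, Junb and Egr1, up to 47.7 CPM for Junb, which is 1 UMI in the smallest well, and Npas4 is at 0 in all wells of these times.

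Fos, the inducible partner of the AP-1 dimer, had 1, 0, 0 and 1 UMIs in the NeuN- saline wells at 6 h and 0, 2, 3, 2, 4 and 0 in the IFN-γ wells, 4.35 against 15.1 CPM pooled. At 24 h it had 0 UMIs in all 6 saline wells and 3, 2, 0, 0, 3 and 0 in the IFN-γ wells, 8.57 CPM pooled. Against a floor of 3 UMIs over the saline wells this was 1.50-fold higher, and the wells overlapped at 0 at both times. The exact interval of the 24 h ratio ran from 0.958 upward and so included no change. The fitted log2 fold changes were 1.61 (SE 0.95) at 6 h and 3.26 (SE 1.26) at 24 h, the second depending on the prior count because saline was at 0, and the adjusted p was 0.117 at 24 h (edgeR). Fos then had 2 UMIs after IFN-γ and 0 after saline at 48 h and 0 in both groups at 72 h.

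Junb, an AP-1 subunit that often restrains Jun, had 0, 0, 0 and 1 UMIs after saline and 1, 2, 3, 1, 5 and 0 after IFN-γ at 6 h, 2.18 against 16.4 CPM pooled, with a ratio of 7.55 (interval 1.12 to 323). At 24 h all 6 saline wells were at 0 and the IFN-γ wells held 2, 3, 1, 0, 0 and 1 UMIs. This was 1.31-fold higher against the floor, with an interval of the ratio from 0.809 upward. The log2 fold changes were 2.48 (SE 1.05) and 3.06 (SE 1.26), with adjusted p of 0.214 and 0.149 (edgeR). From 48 h on Junb had at most 1 UMI in any NeuN- well.

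Jun, the AP-1 subunit that can also pair with itself, was the most counted member in NeuN- nuclei, with 13 UMIs in saline and 36 in IFN-γ wells. At 6 h it had 1, 0, 0 and 0 UMIs after saline and 0, 0, 2, 2, 2 and 1 after IFN-γ. At 24 h it had 0, 1, 2, 1, 0 and 0 against 9, 3, 2, 1, 2 and 4, so all 6 IFN-γ wells held Jun and 3 of 6 saline wells did. The pooled levels at 24 h were 7.63 and 22.5 CPM, a ratio of 2.95 (0.994 to 11.8), with a log2 fold change of 1.52 (SE 0.74) and an adjusted p of 0.289 (edgeR). At 48 h the order was the other way, with 3, 1, 1 and 1 UMIs after saline and 0, 1, 0, 1, 0 and 0 after IFN-γ (12.2 and 2.97 CPM, log2 fold change -1.72, SE 1.03). Neither difference passed the test.

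Among the zinc finger and nuclear receptor members, Egr1 (chr18:34859823-34864984 on GRCm38, plus strand), which binds GC-rich sites in many activity-regulated promoters, had 1, 0, 0 and 0 UMIs after saline and 0, 2, 2, 1, 2 and 1 after IFN-γ at 6 h (2.18 and 11 CPM, ratio 5.03, 0.675 to 223). At 24 h it was at 0 in all saline wells and had 2, 3, 0, 0, 0 and 1 UMIs after IFN-γ. This was 1.12-fold higher against the floor, with an interval of the ratio from 0.661 upward. The adjusted p was 0.454 at 6 h and 0.197 at 24 h (edgeR). Nr4a1, an orphan nuclear receptor, had at most 2 UMIs in any NeuN- well, with 2 in 6 saline and 0 in 6 IFN-γ wells at 24 h.

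Arc, which controls trafficking of glutamate receptors at synapses, had 5 UMIs in all saline and 9 in all IFN-γ NeuN- wells (2.49 and 2.84 CPM). Npas4 had 0 and 4 UMIs there, the 4 in 3 wells at 48 and 72 h. Ier2 had 2 and 2. These 3 genes gave too few counts in NeuN- nuclei to show a difference at this depth.

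Over all 10 genes, no member was called in the NeuN- fraction by edgeR without a filter, of 7 tested at each time, where 2.38% of all genes were called at 6 h, 3.32% at 24 h, 0.303% at 48 h and 0.257% at 72 h. At an unadjusted p under 0.05 there was 1 member at 6 h (Junb), 5 at 24 h (Fos, Jun, Junb and Egr1 higher, Nr4a1 lower at -2.19, SE 1.03) and 0 later. DESeq2 also called 0 members at each time. The log2 fold change was above 0 for 4 of 7 members at 6 h, 6 of 7 at 24 h and 5 of 7 at 48 and at 72 h, with medians of 1.61, 1.63, 0.82 and 0.80 beside -0.02, 0.17, 0.04 and 0.11 over all genes tested. A member with UMIs only after IFN-γ, or only after saline, had its sign fixed in advance. Only after IFN-γ were Fos, Junb, Egr1 and Ier2 at 24 h, Fos, Egr1 and Npas4 at 48 h, and Junb, Egr1 and Npas4 at 72 h. Only after saline were Ier2 at 6 h, Nr4a1 at 24 h, and both at 72 h. These counts and medians therefore do not show a shared rise. In an added fit that set the 6 IFN-γ wells of 1 time against all 18 saline wells of the fraction, Fos (log2 fold change 2.97, adjusted p 0.000379), Junb (3.11, adjusted p 0.000163) and Egr1 (2.95, adjusted p 0.00173) were called higher at 6 h, where 3.56% of all genes were called, and 0 members were called at 24 h. That fit was chosen after the data were seen and sets wells of other injection times against the 6 h wells.

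The makeup of the NeuN- wells changed at the same times. Summed oligodendrocyte markers lay at 6921 to 7973 CPM after saline and 3816 to 4872 CPM after IFN-γ at 6 h, and fell from a median of 7721 to 2616 CPM at 24 h, with 4 of 6 and 6 of 6 markers called lower. Summed microglial markers lay at 420 to 548 CPM after saline and 47.7 to 170 CPM after IFN-γ at 6 h. Astrocyte markers had medians of 790 and 1914 CPM at 24 h, with 2 of 3 tested called higher. Fewer nuclei of a type and less RNA per nucleus cannot be told apart in such pools, and the part of these shifts in the member counts was not tested.

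In NeuN+ nuclei the depth was greater, and the groups lay close together at 6, 48 and 72 h. The 10 genes gave 275 UMIs over the saline wells (15.2 CPM) and 438 over the IFN-γ wells (16.4 CPM). The pooled levels were 17.5 and 15.3 CPM at 6 h, 15 and 23.2 CPM at 24 h, 17.6 and 16.1 CPM at 48 h and 11.2 and 12.2 CPM at 72 h. At 24 h the counting intervals were apart, at 12.3 to 18.1 CPM after saline and 19.5 to 27.5 CPM after IFN-γ. The single wells overlapped there, at 10.2 to 20.2 and 15.6 to 31.4 CPM. By gene, saline and IFN-γ levels over all times were 2.15 and 2.51 CPM for Fos, 1.60 and 1.98 for Jun, 1.60 and 2.06 for Junb, 3.47 and 4.16 for Egr1, 2.92 and 2.73 for Nr4a1, 2.37 and 1.87 for Npas4, 0.772 and 0.599 for Arc and 0.276 and 0.412 for Ier2.

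At 24 h, where the sum was farthest apart, the fitted log2 fold change was above 0 for 9 of 9 members tested, with a median of 0.73 beside -0.03 over all genes. Fosb was tested only because of 2 UMIs in 1 IFN-γ well, so its sign was fixed in advance. Ier2 had 2 UMIs in each group, and Npas4 had 15 after saline and 13 after IFN-γ. The members were counted in the same wells, so this count of signs is not a test. Fos had 4, 5, 3, 3, 1 and 1 UMIs after saline (0.600 to 5.02 CPM) and 2, 5, 9, 4, 3 and 1 after IFN-γ (1.84 to 7.10 CPM), a log2 fold change of 0.78 (SE 0.51). Egr1 had 3, 9, 4, 5, 5 and 3 UMIs after saline (2.41 to 5.34 CPM) and 0, 6, 10, 11, 3 and 8 after IFN-γ (0 to 14.8 CPM), a log2 fold change of 0.73 (SE 0.41). Jun had 0, 3, 1, 2, 0 and 4 UMIs after saline and 3, 3, 3, 5, 1 and 2 after IFN-γ, a log2 fold change of 1.06 (SE 0.61). Nr4a1 had 24 and 25 UMIs in all, of which 12 after IFN-γ were in 1 well. The groups overlapped for all 3 genes given by well and for Nr4a1.

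Npas4, a factor induced in neurons by depolarisation and calcium entry, was not called at any time in NeuN+ nuclei. It had 0, 1, 2 and 4 UMIs after saline and 2, 1, 1, 0, 4 and 4 after IFN-γ at 6 h, a log2 fold change of -0.48 (SE 0.73). At 24 h the fold change was 0.13 (SE 0.60), at 48 h -0.79 (SE 0.63) and at 72 h -0.10 (SE 0.73) on the log2 scale, and the wells overlapped each time. Arc, with 0 to 3 UMIs per NeuN+ well, had its lowest value at 6 h, 4 UMIs in 4 saline and 2 in 6 IFN-γ wells (log2 fold change -1.91, SE 1.05).

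No member was called in NeuN+ nuclei at any time, of 8, 9, 8 and 8 tested without a filter, where 0.722%, 1.14%, 0.157% and 0.428% of all genes were called at 6, 24, 48 and 72 h by edgeR. At an unadjusted p under 0.05 there were also 0 members at each time, the lowest adjusted p was 0.387 (Fosb at 24 h, 2 UMIs in 1 well), and DESeq2 called 0. Across both fractions, 6 of the 61 member tests had an unadjusted p under 0.05, and all 6 were in NeuN- nuclei. Astrocyte markers rose beside these values at 24 h, from a median of 171 to 299 CPM with 2 of 3 tested called. At the same time summed GABA neuron markers lay at 206 to 323 CPM after saline and 107 to 161 CPM after IFN-γ, with 1 of 2 tested called lower, and VGLUT2 neuron markers had medians of 1789 and 2070 CPM with 0 of 3 called. At 72 h dopamine neuron markers rose from a median of 209 to 500 CPM with 5 of 5 tested called, while oligodendrocyte markers had medians of 373 and 669 CPM with 0 of 6 called and VGLUT2 neuron markers 2132 and 1488 CPM with 0 of 3 called. The part of these shifts in the member counts was not tested.

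Whether IFN-γ acted differently in the 2 fractions was asked with an interaction term, the log2 fold change in NeuN+ less that in NeuN- nuclei. No member was called at 6, 24, 48 or 72 h (edgeR without a filter, 0.465%, 1.27%, 0.0811% and 0.155% of all genes called, and 0 by DESeq2). At an unadjusted p under 0.05 there were 3 member values, Egr1 at 6 h (-2.73, SE 1.37), Junb at 24 h (-4.57, SE 2.31) and Nr4a1 at 24 h (4.38, SE 2.19), and the last 2 rest on a NeuN- group at 0. Neither the saline wells over time (0.2% of all genes called in NeuN- and 0.174% in NeuN+) nor the interaction of time and IFN-γ (2.32% and 2.55%) gave a call for any member, with edgeR without a filter or with DESeq2. Among these tests over time 0 members had an unadjusted p under 0.05, the lowest being that of Jun for the interaction in NeuN- nuclei (0.0517).

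Some members were called between the fractions in the absence of IFN-γ, in a comparison that called many genes. Over the 18 saline wells of each fraction, Npas4 had 0 UMIs in 2011820 NeuN- UMIs and 43 in NeuN+ nuclei (2.37 CPM), and Egr1 had 1 UMI (0.497 CPM) and 63 UMIs (3.47 CPM). Jun went the other way, with 13 UMIs in NeuN- (6.46 CPM) and 29 in NeuN+ nuclei (1.60 CPM). In a fit of these wells with time as a covariate, the log2 fold change of NeuN+ over NeuN- was 3.61 (SE 1.06, adjusted p 0.00307) for Npas4, 2.56 (SE 0.82, adjusted p 0.00625) for Egr1 and -1.53 (SE 0.50, adjusted p 0.00737) for Jun (edgeR without a filter, call beyond 0.5 with adjusted p under 0.01). These were 3 calls among 8 members tested, where 26.4% of all genes were called, so the count does not set the members apart from other genes. The value for Npas4 depends on the prior count, since its NeuN- wells were at 0. Its interval reached 1.83 CPM in NeuN- nuclei and ran from 1.72 to 3.19 CPM in NeuN+ nuclei. In the pooled IFN-γ wells Npas4 stood at 1.26 CPM in NeuN- and 1.87 CPM in NeuN+ nuclei. Egr1 stood there at 5.04 and 4.16 CPM, the other way round from saline, and Jun at 11.3 and 1.98 CPM.

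Of the other members, Fos (1.23, SE 0.77), Junb (0.89, SE 0.79), Nr4a1 (0.21, SE 0.57), Arc (-1.03, SE 0.69) and Ier2 (-1.03, SE 0.87) did not pass. The call of Npas4 held in each of the 36 fits that left out 1 well, that of Jun in 30 and that of Egr1 in 19. DESeq2 called only Jun, and gave log2 fold changes of 0.91 for Egr1 and 0.57 for Npas4. With the filter on low counts none of the 10 was tested, and 58.9% of the genes that passed it were called.

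**Figure D2:**
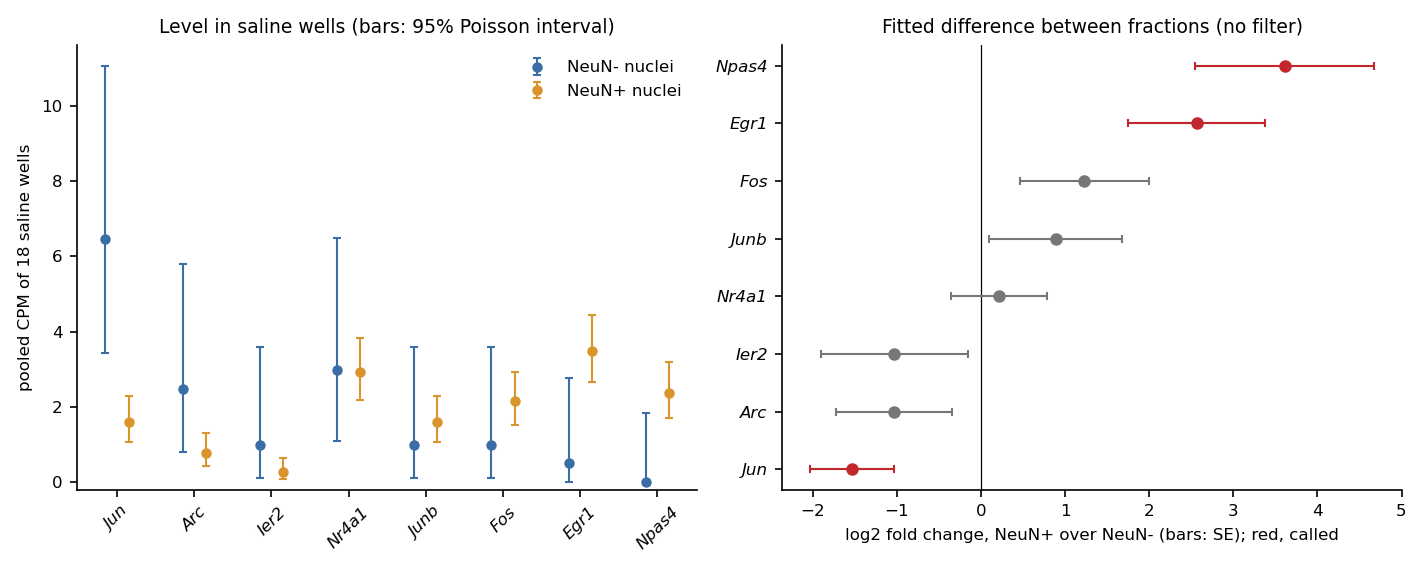
Left, pooled level in CPM of 8 members over the 18 saline wells of each NeuN fraction, with 95% Poisson intervals. Right, fitted log2 fold change of NeuN+ over NeuN- nuclei with its SE (horizontal bars), called members in red. Npas4 and Egr1 lie to the NeuN+ side and Jun to the NeuN- side, while the intervals of the other members reach across or near 0.

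The single nuclei at 48 h placed the members in cell classes. After clustering, 1016 nuclei of the saline mouse and 2574 and 1109 nuclei of IFN-γ mice 1 and 2 were assigned by marker genes, and no cell barcode was shared between mice. Levels are CPM of all UMIs of a class in 1 mouse, and with 1 saline mouse the test on sums takes its spread from the 2 IFN-γ mice. Free RNA gives a low signal in all droplets, and the 4 neuronal markers summed to 125 to 184 CPM in oligodendrocyte nuclei against 3192 to 6319 CPM in the neuronal classes. Nuclei without a UMI of any member made up 71.5% of the saline mouse and 77.1% and 70.3% of the IFN-γ mice.

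In single nuclei Jun stood higher in oligodendrocytes and in the clusters with microglial markers than in the neuronal classes. It was at 17.3, 27.4 and 37.4 CPM in oligodendrocytes of the saline mouse and IFN-γ mice 1 and 2 (12, 74 and 54 UMIs), and at 83.3, 56.2 and 60.3 CPM in the unnamed clusters that carry microglial markers (7, 11 and 14 UMIs). In the dopamine, GABA and VGLUT2 neurons, and in the unnamed clusters with neuronal markers, it lay between 3.41 and 8.74 CPM in all mice. In astrocytes it had 0, 7 and 1 UMIs (0, 10.8 and 4.30 CPM), too few to place them. The oligodendrocyte difference came to 0.93 on the log2 scale, with an SE of 0.42 and an adjusted p of 0.341 (edgeR), and both IFN-γ mice lay above the saline mouse. This direction differs from that of Jun in the NeuN- wells at 48 h, where neither value passed the test. With each nucleus thinned to 2000 UMIs, Jun was found in 2.20%, 4.95% and 6.33% of oligodendrocyte nuclei (6.28%, 8.6% and 13.7% before thinning, median depths 3383, 3446 and 4202 UMIs). In VGLUT2 neurons, with medians of 14666 to 20066 UMIs, the thinned shares were 1.80%, 2.67% and 0%.

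Junb was highest in the clusters with microglial markers, at 71.4, 148 and 116 CPM (6, 29 and 27 UMIs), against 2.25 to 8.83 CPM in the neuronal classes. Its log2 fold change in this class was 0.86 with an SE of 0.64 and an adjusted p of 0.586 (edgeR), and 1 of the 2 clusters in this class held nuclei of the IFN-γ mice only. In oligodendrocytes Junb had 0, 8 and 3 UMIs.

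Fos had 0 UMIs among 694527 in oligodendrocytes of the saline mouse, which allows up to 5.31 CPM, and 9 and 11 UMIs in those of the IFN-γ mice (3.33 and 7.62 CPM). Of these, 7 and 9 UMIs came from a single oligodendrocyte cluster of 288 nuclei that held no nucleus of the saline mouse and whose leading genes were the interferon-induced Iigp1 and Tgtp2. There Fos stood at 9.52 and 20.6 CPM, and the remaining 2 and 2 UMIs lay in 1 of the other 2 oligodendrocyte clusters. The adjusted p in oligodendrocytes was 0.276 (edgeR). In the unnamed neuronal clusters Fos had 18, 16 and 13 UMIs (4.23, 1.12 and 2.44 CPM), highest in the saline mouse.

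Egr1 and Nr4a1 were also highest in the saline mouse in the unnamed neuronal clusters. Egr1 stood there at 10.1, 3.57 and 3.76 CPM (43, 51 and 20 UMIs), a log2 fold change of -1.45 (SE 0.34), and Nr4a1 at 6.11, 2.31 and 2.26 CPM (26, 33 and 12 UMIs), a log2 fold change of -1.39 (SE 0.42), both with an adjusted p of 0.999 (edgeR). The nuclei of this class sat in different clusters in the 3 mice. For 3 of its clusters the counts were 38, 245 and 27, then 3, 92 and 14, and then 2, 82 and 3 nuclei, out of 243, 849 and 266, and summed VGLUT2 neuron markers stood at 1561, 2238 and 1416 CPM. The part of this makeup in the values of Fos, Egr1 and Nr4a1 was not tested. In GABA and VGLUT2 neurons Egr1 lay between 3.41 and 5.03 CPM in all 3 mice. In dopamine neurons it had 3 UMIs in the saline mouse and 0 in both IFN-γ mice.

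Npas4 lay between 2.35 and 6.08 CPM in the neuronal classes and had 0 UMIs in astrocytes and in the clusters with microglial markers, with 0, 2 and 0 UMIs in oligodendrocytes. Arc had its higher values outside neurons, 7.20, 12.2 and 9.0 CPM in oligodendrocytes (5, 33 and 13 UMIs) against 0.25 to 1.88 CPM in the neuronal classes. Fosb had 4, 3 and 1 UMIs over all nuclei of the 3 mice, Egr3 had 2, 2 and 0, and Ier2 had 13, 31 and 18.

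**Figure D3:**
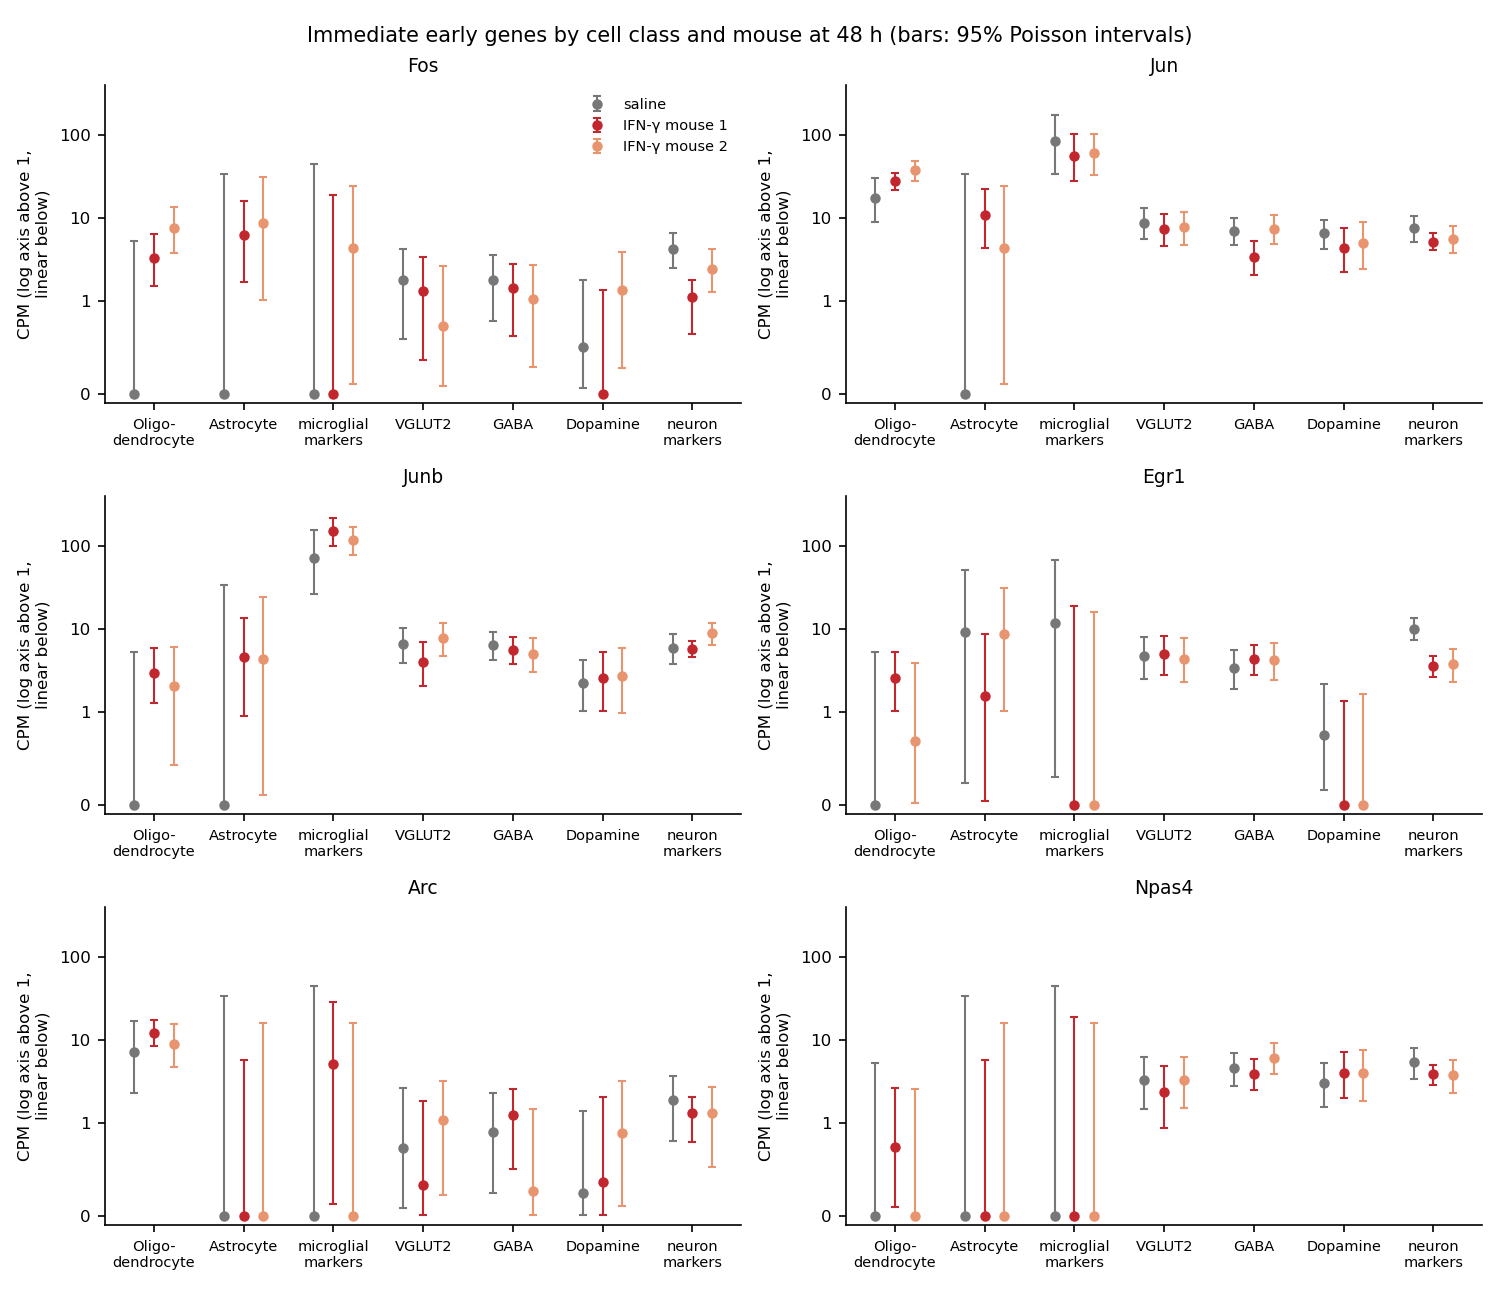
Level of Fos, Jun, Junb, Egr1, Arc and Npas4 in CPM in 7 cell classes of single nuclei at 48 h (the vertical axis is logarithmic above 1 and linear below), with 1 point per mouse and 95% Poisson intervals, saline in grey and IFN-γ mice in red. Jun and Junb are highest in the clusters with microglial markers, and Fos is at 0 in oligodendrocytes of the saline mouse only.

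Among 32 member tests in 7 cell classes edgeR called 0 members (log2 fold change beyond 3 in both IFN-γ mice with adjusted p under 0.01), and 4 had an unadjusted p under 0.05, namely Fos and Jun in oligodendrocytes and Egr1 and Nr4a1 in the unnamed neuronal clusters. DESeq2 called 0. Of all genes, 0.601% were called in oligodendrocytes, 0.783% in the clusters with microglial markers, 0.116% in astrocytes, 0.0503% in dopamine, 0.0406% in GABA and 0.0501% in VGLUT2 neurons and 0.0052% in the unnamed neuronal clusters.

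The wider pathway was examined by 6 lists of related genes. The other AP-1 and ATF subunits (9 genes) and the other EGR and NR4A members with their co-repressors (6 genes) were also mostly below the filter in the wells. Of these 15 genes, none passed the filter in NeuN- nuclei and 3 did in NeuN+ nuclei, with 0 calls. Without the filter, Nr4a3, a relative of Nr4a1, was called higher in NeuN+ nuclei at 24 h, with 18 UMIs in 6 saline wells (1 to 4 each) and 53 in 6 IFN-γ wells (5 to 19 each) and a log2 fold change of 1.85 (SE 0.42, adjusted p 0.000502, edgeR). Batf, an AP-1 factor of lymphoid cells, was called lower in NeuN- nuclei at 48 h, but 18 of its 19 saline UMIs lay in 1 well.

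Some related genes with higher counts were called in NeuN- nuclei. The makeup of these wells shifted at 6 and 24 h, as given above, and its part in these values was not tested. Crem, the cyclic AMP response modulator that is both a target and a regulator of CREB sites, stood at 6 h at 21.8 to 68.5 CPM in the 4 saline wells and 193 to 348 CPM in the 6 IFN-γ wells, with no overlap (means 49.4 ± 19.9, SD, n = 4, and 289 ± 55.7 CPM, SD, n = 6). This was a log2 fold change of 2.50 (SE 0.27), with an adjusted p of 2.08e-09 by edgeR, the largest among the called genes of these lists at 6 h, in a comparison that called 11.7% of the genes that passed the filter, and the call held under every alternative run. It stood at 112 ± 23.4 CPM at 24 h, beside 49.4 ± 32.9 CPM after saline, and at 50.7 ± 18 CPM at 48 h. In NeuN+ nuclei at 6 h Crem stood at 41.7 ± 13.3 and 86.0 ± 11.4 CPM, also with no overlap (25.3 to 55.9 and 72.3 to 103 CPM), but its log2 fold change of 0.89 (SE 0.14) was below the size needed for a call, and the effects differed between the fractions (interaction -1.68, SE 0.34, adjusted p 0.000496, edgeR, 2.53% of the genes that passed the filter called).

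Rps6ka3, a kinase downstream of ERK that phosphorylates CREB, rose in NeuN- nuclei from 140 ± 14.9 to 375 ± 60.3 CPM at 6 h (log2 fold change 1.43, SE 0.18) and from 105 ± 33.7 to 219 ± 57.4 CPM at 24 h (1.03, SE 0.23). In NeuN+ nuclei at 6 h it stood at 239 ± 28.0 CPM after saline and 321 ± 16.8 CPM after IFN-γ, with no overlap but without a call. Mef2c, a factor at activity-regulated promoters that is also abundant in microglia, fell in NeuN- nuclei from 136 ± 14.0 to 45.2 ± 11.2 CPM at 6 h (-1.61, SE 0.30), beside the fall of microglial markers at that time. At 72 h its order there was the other way, with 132 ± 19.1 CPM after saline and 221 ± 30.6 CPM after IFN-γ, with no overlap but without a call. Mcl1, a short-lived survival gene, stood at 8.56 to 60 CPM after saline and 67.8 to 111 CPM after IFN-γ at 6 h (1.61, SE 0.40), and Tiparp, an early induced ADP-ribosyltransferase, at 7.25 to 124 and 0 to 174 CPM (1.65, SE 0.44). The heat-shock genes Hsph1 (1.43, SE 0.30) and Dnaja1 (1.13, SE 0.27) were called higher at 6 h as well, and Dnaja1 also at 24 h (1.59, SE 0.29). With a sex-linked term in the fit the 6 h calls of Rps6ka3, Mef2c, Mcl1, Tiparp, Hsph1 and Dnaja1 were lost, with log2 fold changes of 1.04 to 1.79 in size, while that of Crem was kept.

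The effects on Rps6ka3 also differed between the fractions at 6 h (interaction -1.13, SE 0.19) and at 24 h (-1.11, SE 0.22, 4.22% of the genes that passed the filter called), as did those on Mef2c at 6 h (1.57, SE 0.32) and at 72 h (-1.14, SE 0.22) and on Dnaja1 at 24 h (-1.33, SE 0.31).

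By list, at 6 h in NeuN- nuclei 1 of 2 tested activity-induced genes, 2 of 2 tested early feedback genes, 2 of 8 tested upstream regulators (1 higher, 1 lower) and 2 of 4 tested heat-shock genes were called. Of all genes that passed the filter 11.7% were called. At 24 h the counts were 0 of 1, 0 of 0, 1 of 6 and 1 of 2, where 14.6% of the genes that passed the filter were called, and at 48 h none was called, where 1.4% were. Without the filter, where 3.32% of all genes were called, 10 genes of these lists were called higher at 24 h, among them Klf6, Mcl1, Tiparp and Crem. Another was Gadd45b, a stress-inducible gene with 0 UMIs in 6 saline wells and 20 in 6 IFN-γ wells (5 of 6 wells, log2 fold change 4.47, SE 1.17, adjusted p 0.00372, edgeR). Gadd45b was also the gene of these lists called higher in single oligodendrocyte nuclei at 48 h by edgeR, while DESeq2 called none there.

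At 72 h Sgk1, a kinase induced by activity and by glucocorticoids, was lower in NeuN- nuclei after IFN-γ (450 ± 46.9 and 200 ± 17.5 CPM, log2 fold change -1.20, SE 0.15, 1.13% of the genes that passed the filter called). At 48 h the order was the other way, with 110 ± 33.1 CPM after saline (68.8 to 143) and 207 ± 31.2 CPM after IFN-γ (164 to 248), again with no overlap but without a call (log2 fold change 0.85, SE 0.22, adjusted p 0.011, edgeR). Against the saline wells of all times the 72 h value was -0.55 and was not called. In NeuN+ nuclei at 72 h it stood at 118 ± 7.50 and 124 ± 18.1 CPM, and the effects differed (interaction 1.26, SE 0.17, 0.347% of the genes that passed the filter called). In NeuN+ nuclei the call among these lists with the filter was Pcsk1, a prohormone convertase, at 24 h (48.8 ± 8.69 and 96.6 ± 6.37 CPM, log2 fold change 1.02, SE 0.11, with 1.73% called). It was 0.94 and not called against the saline wells of all times. Without the filter Socs3, a feedback inhibitor of STAT signalling, was also called in NeuN+ nuclei at 24 h, with 0 UMIs in 6 saline wells and 10 in 6 IFN-γ wells (1 to 3 each, adjusted p 0.00446, edgeR). At 6, 48 and 72 h no gene of these lists was called in NeuN+ nuclei, where 1.37%, 0.169% and 0.766% of the genes that passed the filter were called.

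**Figure D4:**
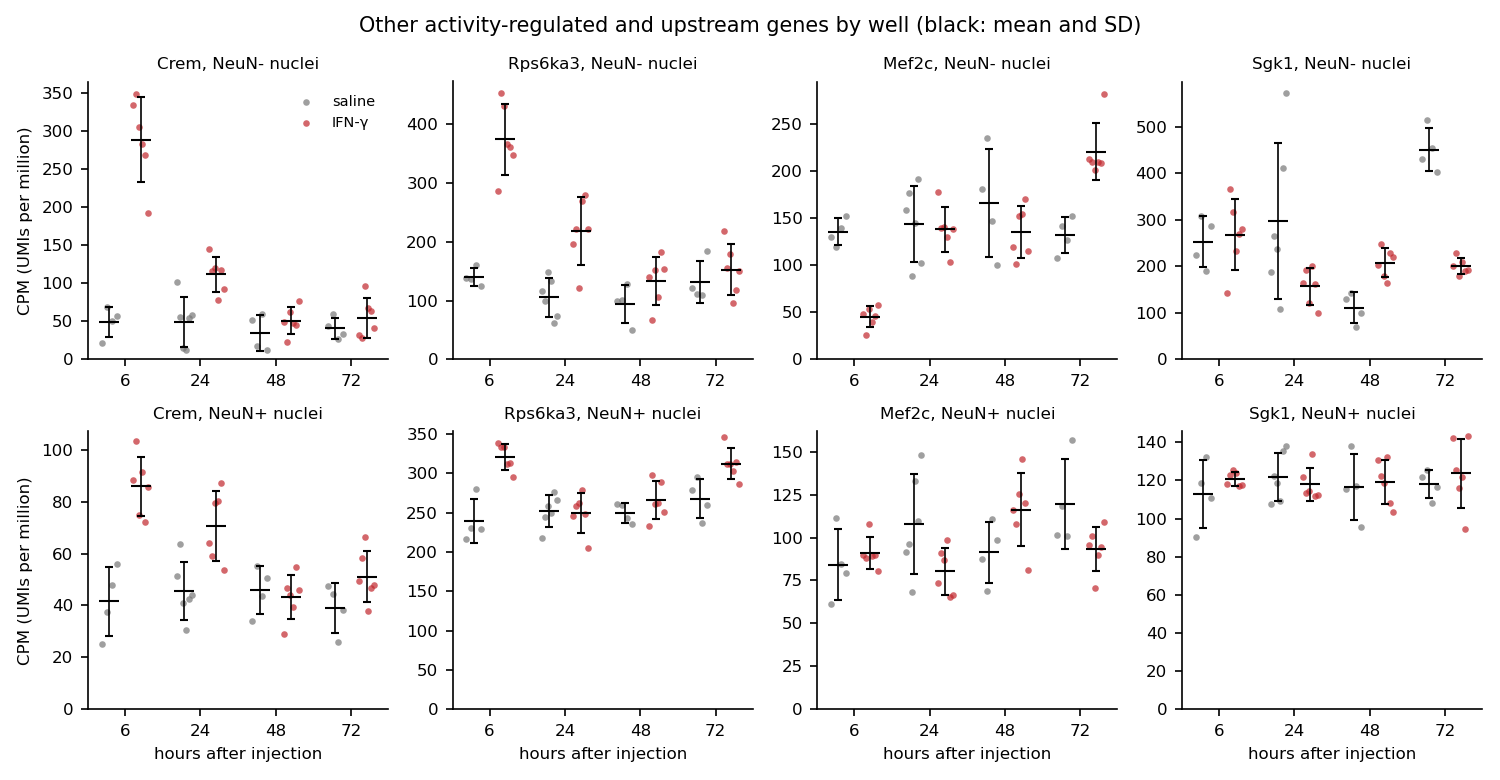
Level of Crem, Rps6ka3, Mef2c and Sgk1 in CPM in every well (vertical axis) by hours after injection, NeuN- wells in the upper and NeuN+ wells in the lower row, saline in grey and IFN-γ in red, with the mean and SD of each group. Crem and Rps6ka3 separate the groups at 6 h in both fractions. In NeuN- nuclei Mef2c lies below its saline wells at 6 h and above them at 72 h. Sgk1 separates the groups there at 48 h, with IFN-γ higher, and at 72 h, with IFN-γ lower.

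Between the fractions in the saline wells, where 58.9% of the genes that passed the filter were called, 5 of the 7 tested activity-induced genes were called. In NeuN+ nuclei 4 were higher, namely Pcsk1 (log2 fold change 4.93), Bdnf (3.82), Scg2 (3.71) and Homer1 (0.73), Sgk1 was lower (-1.22), and Rheb and Crem were not called. The 3 tested early feedback genes were all lower there, with Zfp36l1 at -3.82, Zfp36l2 at -2.06 and Tiparp at -0.96. Of 15 tested upstream regulators 6 were higher, such as the calcium-dependent kinase Camk4 (3.33), and 3 were lower, among them Rps6ka5 (-1.79), a kinase of histone H3 and CREB. The lower call of Mef2c (-0.52) was lost with RLE factors and with DESeq2 (-0.41 in both).

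Across the 42 NeuN+ wells the genes whose log2(CPM + 1) was most like that of Fos, among 8967 genes with a mean of at least 10 CPM, were Zcchc2 (Pearson r 0.61), Psma3 (0.56), Asap3 (0.54), 2900093K20Rik (0.52) and Zfp639 (0.52). These are the top of many correlations with a gene of 0 to 9 UMIs per well, the wells share times and mice, and the r of Fos with the log2 total count of a well was 0.15.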

How the data were processed

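Nuclei were sorted by NeuN and sequenced as pools in 84 wells at 6, 24, 48 and 72 h, and as single nuclei of 3 mice at 48 h. The authors deposited raw counts of UMIs per gene in 1 table for each. For the wells they trimmed poly(A) from the reads, aligned them with STAR in two-pass mode to GRCm38 with a Gencode annotation, and merged UMIs within a Hamming distance of 1, so that a count is a molecule and not a read. For the single nuclei, made with 10x Genomics 3′ chemistry, the deposited counts cover whole gene bodies, introns included, with doublets removed by the authors. Neither table was normalized.

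Counts were scaled to CPM of the well total. Differences were tested with edgeR 4.0.16 in R 4.3.3 (TMM factors, quasi-likelihood F test, Benjamini-Hochberg adjustment over all genes tested), with filterByExpr and without a filter, since no member passed it. DESeq2 1.42.0 was the other tool. Zero counts were compared through a floor of 3 UMIs over a group. Nuclei were clustered in Python 3.11.15 (2000 variable genes, 30 components, 15 neighbours, leidenalg 0.10.2), clusters were named from marker lists, and UMIs were summed by class and mouse for edgeR, for genes with at least 10 UMIs. The genes named are all 10 members, the called genes of the other lists and the 5 genes most like Fos, and genes called only without a filter were named after their values were seen. The fits were also run on simulated data, in which only genes above a least count were changed. Most IFN-γ tests of a member did not reach that count. The simulation therefore does not show how well a change in such members could be found. The members, lists and tests were chosen with earlier results of these data known.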

Additional observations from a re-analysis of the deposited data

Results flagged for a closer look

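Over both fractions, 5 of the 37 groups of wells with at least 10 UMIs of a member had 1 well far above the others by a gap test. All 5 were in NeuN+ nuclei. Its limit lets about 1 group in 20 pass by chance for continuous values, which these counts of few UMIs are not. Fos stood at 7.10 CPM (9 UMIs) in IFN-γ replicate 3 at 24 h, beside 1.84 to 3.60 CPM in the other 5 wells. Nr4a1 stood at 8.65 CPM (12 UMIs) in IFN-γ replicate 2 at 24 h, beside 1.58 to 4.15 CPM. Junb stood at 4.69 CPM (3 UMIs) in IFN-γ replicate 1 at 24 h, beside 1.44 to 2.07 CPM, and at 3.76 CPM (3 UMIs) in saline replicate 1 at 24 h, beside 0.802 to 1.80 CPM, where replicate 5 also held 3 UMIs in a deeper well. Npas4 stood at 5.52 CPM (5 UMIs) in IFN-γ replicate 3 at 72 h, beside 0.716 to 1.91 CPM.

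In 7 cases the effect of IFN-γ on a related gene differed between the fractions in a test of the difference itself (log2 fold change in NeuN+ less that in NeuN- nuclei, edgeR). At 6 h these were Crem (-1.68), Rps6ka3 (-1.13) and Mef2c (1.57). At 24 h they were Rps6ka3 (-1.11) and Dnaja1 (-1.33), and at 72 h Sgk1 (1.26) and Mef2c (-1.14). Leaving out NeuN- saline replicate 1 at 6 h ended the call of Crem (-1.27), and single wells ended those of Rps6ka3 at 6 h (-0.98, NeuN- saline replicate 4) and 24 h (-0.92, NeuN- saline replicate 5), Dnaja1 (-1.16, NeuN- saline replicate 4) and Mef2c at 72 h (-0.97 and -1.03, NeuN+ saline replicate 4 and NeuN- saline replicate 1).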

How the results depend on the processing

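With 1 UMI worth 9.07 CPM in the median NeuN- well and a floor of 3 UMIs at 27.2 CPM, only large differences of a member could be detected there. The count of members called stayed at 0 in the IFN-γ, interaction and time comparisons under every alternative run (RLE factors, DESeq2, no filter, a sex-linked term, saline wells of all times, each well left out), except that it became 3 at 6 h in NeuN- nuclei with no filter and the saline wells of all times together. In fits where no member passed the filter the 0 was fixed in advance, so only fits that tested members bear on this count. In the comparison of the fractions it was 3 with no filter, 2 with no filter and RLE factors and 1 with DESeq2, and with no filter it ranged from 1 to 3 when each well was left out. The unthinned shares of oligodendrocyte nuclei with Jun were 6.28%, 8.6% and 13.7% in the saline mouse and IFN-γ mice 1 and 2. The clusters with microglial markers gave no value at the finest clustering. Of the related genes, Tiparp and Mcl1 lost their call at 6 h with DESeq2. Leaving out 1 well ended the call of Tiparp for 4 wells (1.22 without NeuN- saline replicate 1), of Rps6ka3 at 24 h for 4 (0.83 without NeuN- saline replicate 5) and of Pcsk1 for 2 (0.94 without NeuN+ saline replicate 5). Against the saline wells of all times the 24 h call of Rps6ka3 was also lost, at 0.86. Mcl1 passed the filter in only 6 of the fits that left out 1 well. In 1 of these its call ended (1.30 without NeuN- saline replicate 2), and in the remaining fits it was not tested. No paired analysis was possible because the labels give the wells no replicate numbers. The replicate numbers printed here count the wells of a group in their deposited order, so equal numbers in different groups do not mark the same mouse.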
